A study of Mus musculus with 4 samples.

Results

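The guanylate-binding protein (Gbp) genes of the mouse lie in a cluster on chromosome 3 and a cluster on chromosome 5. Of the 21755 protein-coding genes annotated on the chromosomes with peaks, 9 Gbp genes were taken by name, together with Gbp11, which is annotated as a polymorphic pseudogene, so that the group held 10 genes. Gbp2, Gbp3, Gbp5 and Gbp7 made up the 4 genes of the chromosome 3 cluster, and Gbp4, Gbp6, Gbp8, Gbp9, Gbp10 and Gbp11 the 6 genes of the chromosome 5 cluster. Each gene was assigned every ATAC-seq peak that overlapped its body or the 10 kb on either side, in mm10 coordinates with the GENCODE vM21 annotation. The genes were taken by name, and no measured value entered that rule. When the peaks of the 4 libraries were merged where they overlapped, 32 of 71243 regions belonged to the Gbp genes.

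ATAC-seq marks open chromatin by where the Tn5 transposase can insert adapters. Bone marrow-derived macrophages (BMDMs) were grown for 6 to 8 days in medium conditioned by L929 cells, and 2 libraries were made for each genotype. WT cells carried H3f3a fl/fl and H3f3b fl/fl, the floxed genes for histone H3.3, without Cre. H3.3cKO cells carried the same floxed alleles with LysM cre/cre, whose Cre is expressed in myeloid cells from the lysozyme 2 locus, so the groups also differed in Cre and in the lysozyme 2 alleles. The labels call the libraries biological replicates and do not say which mice they came from. All values below are per library, in the order WT replicate 1, WT replicate 2, cKO replicate 1 and cKO replicate 2.

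GBPs are large GTPases that interferons, above all interferon-γ, induce in macrophages. They assemble on vacuoles that hold parasites or bacteria and on bacterial membranes, and they help to expose bacterial lipopolysaccharide to inflammasome caspases. Promoters of interferon-induced genes often hold the GAS element, through which interferon-γ acts, or the interferon-stimulated response element (ISRE), which interferon regulatory factors such as IRF1 bind.

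The 4 lists held 55742, 64939, 51955 and 60884 peaks, and their weakest peaks had areas of about 200. The peak area is the authors' area under the significance curve of a peak, and its percentile is the share of peaks of the same list that had a smaller area. Read depths are unknown, so a peak that is missing from a list may lie just under that limit. Peaks lay over a start site in all 4 libraries for 6 of 7 macrophage marker genes, with Spi1 as the exception, and over none for 3 of 3 T-cell, 3 of 3 B-cell and 2 of 2 fibroblast marker genes. A peak lay over the start in all 4 libraries for 1 of 4 neutrophil markers (S100a8) and 2 of 3 dendritic cell markers (Flt3 and Zbtb46). Summed over each list, the area in ppm of the list total was 989 to 1005 in WT and 858 to 878 in cKO for macrophage markers, 58.7 to 59.0 and 41.2 to 47.4 for neutrophil markers, and 153 to 155 and 124 to 125 for dendritic cell markers. It was 65.6 to 76.9 and 19.4 to 25.3 for T-cell, 44.4 to 46.9 and 51.3 to 55.3 for B-cell, and 101 to 104 and 43.4 to 52.8 for fibroblast markers. The T-cell sum came from Cd4 alone, and most of the B-cell and fibroblast sums came from Cd79a and Pdgfrb. Of the neutrophil markers Ly6g alone went the other way, at 0 in both WT lists and 7.70 and 4.70 ppm in cKO. Of the 7 macrophage markers, 1 was higher in cKO and 3, Mertk, Csf1r and Itgam, were lower in the test of summed area described below. Over all genes in that test 16.6% were higher and 17% were lower. The part of the marker differences in the Gbp results was not tested. H3f3a had 4 regions, and 1 of them had a peak in WT replicates 1 and 2 but in no cKO library, and H3f3b had 5, with 0 of that kind.

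The promoters of the chromosome 3 genes are shown because each holds an ISRE match and lies under a peak described below. RefSeq promoter sequences (build GRCm38.p6, the assembly of mm10) were matched for 4 of the 10 genes, and Gbp4, Gbp6, Gbp8, Gbp9, Gbp10 and Gbp11 had no entry. Each run below is 160 bases on the forward strand and is cut so that at most 20 annotated untranslated bases remain. The Gbp5 run is chr3:142496760-142496919, the Gbp7 run chr3:142530176-142530335, the Gbp3 run chr3:142559884-142560043 and the Gbp2 run chr3:142620462-142620621. Capitals mark matches to the ISRE (GAAA, any 2 bases, GAAA), the GAS element (TTC, any 3 bases, GAA) and the AP-1 element (TGAGTCA or TGACTCA), each searched on both strands. In the Gbp3 run 2 overlapping ISRE matches form a single run of capitals.
Gbp5 promoter: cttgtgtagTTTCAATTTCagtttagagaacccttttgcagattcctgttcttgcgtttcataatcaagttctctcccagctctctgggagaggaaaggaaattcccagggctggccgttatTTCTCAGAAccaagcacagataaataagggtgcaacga
Gbp7 promoter: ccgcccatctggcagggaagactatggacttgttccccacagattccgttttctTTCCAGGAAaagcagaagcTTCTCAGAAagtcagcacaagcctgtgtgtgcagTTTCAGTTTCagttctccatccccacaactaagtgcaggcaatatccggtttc
Gbp3 promoter: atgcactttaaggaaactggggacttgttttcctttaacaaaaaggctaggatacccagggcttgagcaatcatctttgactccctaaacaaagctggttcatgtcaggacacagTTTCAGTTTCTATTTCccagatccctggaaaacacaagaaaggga
Gbp2 promoter: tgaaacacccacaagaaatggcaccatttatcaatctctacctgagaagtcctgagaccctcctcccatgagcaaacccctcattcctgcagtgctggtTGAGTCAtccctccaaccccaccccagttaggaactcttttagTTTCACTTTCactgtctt

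Counting from 1 at the start of each run, the ISRE matches began at position 10 for Gbp5, 108 for Gbp7, 116 and 122 for Gbp3 and 143 for Gbp2. Gbp5 also had a GAS match at position 123 and Gbp7 had GAS matches at 55 and 74, whereas the AP-1 match at position 100 was in the Gbp2 run. The RefSeq table held 5 promoters of these 4 genes, of 300 bases each (250 before the start and 50 from it on). The ISRE was in 4 of the 5, the exception being a second Gbp3 promoter, against 3.44% of all 32851 promoters in the table. The GAS element was in 2 of the 5 against 8.30%, the AP-1 element in 1 of the 5 against 5.20%, and the PU.1 element (GAGGAAGT) in 0 of the 5 against 3.20%. A match is a description of the sequence and does not show that a factor was bound.

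At the chromosome 3 cluster, accessibility at the starts of Gbp3, Gbp5 and Gbp7 was lower in H3.3cKO BMDMs, and an intronic site of Gbp5 was higher. At the start of Gbp2 the strongest peak kept its percentile, while the summed area of the region ranked lower. The cluster had 16 regions. In 11 of them every library had a peak, 2 were lost in H3.3cKO (a peak in both WT lists and in no cKO list), 0 were gained (a peak in both cKO lists and in no WT list) and 3 had another pattern. Over all 71243 regions, 62.9% were called in all 4 libraries, 7.25% were lost and 3.72% were gained. Regions called in all 4 libraries were compared by limma on a rank score, the normal score of the rank of the region's strongest peak in its list, with Benjamini-Hochberg adjustment over all 44820 such regions. In that test 6.77% of all regions were higher and 13.1% were lower in H3.3cKO, and the median score difference was −0.06. At the chromosome 3 genes 1 region passed as higher, 3 passed as lower and 7 did not pass. The p-values rest on a spread that limma fitted over all shared regions, with 2 libraries per genotype. A region's own spread between libraries had almost no weight in them. In bulk cells, fewer cells with an open site and a site less open in each cell cannot be told apart.

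Gbp7, which supports autophagy and the NADPH oxidase, had its start site under the region chr3:142529765-142531148. Its percentiles were 96.8, 96.7, 90.6 and 91.9. Both WT values lay above both cKO values, and the difference of the score was −0.49 ± 0.07 (cKO minus WT ± SE, limma adjusted p = 3.46e-09).

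The start sites of Gbp3 lay under chr3:142559613-142561112, which was the highest-ranked Gbp region in every library. Its percentiles were 97.8, 97.7, 94.6 and 94.8. The groups did not overlap, and the score was lower by −0.38 ± 0.07 in H3.3cKO (limma adjusted p = 1.48e-06). A weaker region in an exon of Gbp3, chr3:142570640-142571177, stood at 52.6 and 55.8 in WT, was not called in cKO replicate 1 and stood at 6.49 in cKO replicate 2.

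Gbp5, which promotes inflammasome assembly, had regions that differed in opposite directions. The region over its start, chr3:142496448-142497858, had percentiles of 80.1, 81.7, 58.2 and 73.4. Both cKO libraries lay below both WT libraries, and cKO replicate 1 was the lowest. The score difference was −0.46 ± 0.12 (limma adjusted p = 0.00149). Without WT replicate 2 it was −0.43 (adjusted p = 0.078), and without cKO replicate 1 it was −0.25 (adjusted p = 0.332), so the call rested on those libraries. It was also lost (adjusted p = 0.143) when regions called in at least 2 libraries were fitted with missing peaks at the lowest rank.

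In an intron of Gbp5, 2379 bp downstream of the start, the region chr3:142498991-142499568 had percentiles of 28.4, 10.6, 56.1 and 63.5. Both cKO libraries stood above both WT libraries, and the score difference was 1.16 ± 0.27 (limma adjusted p = 0.000236). It was the Gbp region that passed as higher, and of its 32-base words 23.0% occur more than once in the genome. Its call was lost in the same fit with missing peaks at the lowest rank (adjusted p = 0.078). The 151 bases around its summits, chr3:142499158-142499308 on the forward strand, are shown because they too hold an ISRE match, at position 127 and in capitals.
Gbp5 intronic region: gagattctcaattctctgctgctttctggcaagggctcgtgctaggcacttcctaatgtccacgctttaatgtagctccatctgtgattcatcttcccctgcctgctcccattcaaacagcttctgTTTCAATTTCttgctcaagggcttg

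Gbp2, whose protein attacks the vacuole of Toxoplasma, had its start under chr3:142620074-142621631. The percentiles of its strongest peak were 86.0, 88.2, 86.0 and 88.8. The groups overlapped, and the score difference was 0.01 ± 0.09 (limma adjusted p = 0.949). Each WT list held 2 separate peaks in this region and each cKO list held 1 that spanned both, so the strongest peaks were of unlike width. With the summed area of the region in place of the strongest peak the score difference was −0.27 (limma adjusted p = 0.015).

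Upstream of Gbp2, in an exon of the neighbouring relative Gbp2b and 1768 bp before the Gbp2 start, the region chr3:142618593-142619075 was lost in H3.3cKO. It stood at percentiles 49.0 and 52.0 in WT and had no peak in either cKO library. The other lost region, chr3:142646046-142646219, was 25530 bp downstream of the Gbp2 start and was weak in WT, at percentiles 2.24 and 4.84.

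The remaining chromosome 3 regions called in all 4 libraries did not pass this test. Upstream of the Gbp5 start, a region 6254 bp before it had percentiles of 46.6, 52.5, 45.8 and 53.1. A region 3110 bp before that start had 69.8, 73.1, 68.3 and 72.7, and it covered the outer 5′ end of the annotated Gbp5 body. An intronic region of Gbp3 stood at 60.5, 73.4, 59.97 and 68.7. A region beyond the 3′ end of Gbp3, 16980 bp from its start, stood at 63.2, 69.7, 55.4 and 59.6, so that the groups did not overlap, with a score difference of −0.24 ± 0.15 (limma adjusted p = 0.302). In the Gbp2 promoter, 788 bp before the start, the values were 13.5, 23.8, 18.4 and 21.2, and in a Gbp2 exon they were 43.4, 53.1, 30.5 and 47.2. A region 19784 bp downstream of the Gbp2 start was at 10.9 and 25.99 in WT, absent from cKO replicate 1 and at 28.5 in cKO replicate 2, and a region in an exon of Gbp5 was called in WT replicate 2 alone, at 5.95.

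At the chromosome 5 cluster 2 promoters gained a weak peak in H3.3cKO and no region shared by the 4 libraries passed the test in either direction. The cluster also had 16 regions. In 10 of them every library had a peak, 2 were gained, 0 were lost and 4 had another pattern. Across both clusters, 21 of 32 regions were called in all 4 libraries.

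The first gained region, chr5:105139345-105139929, covered the start of Gbp4 and the start of a long annotated transcript each of Gbp8 and Gbp9. It had no peak in either WT library and stood at percentiles 32.4 and 28.9 in cKO. Next to it, 1321 bp downstream of the Gbp4 start, the intronic region chr5:105138078-105138452 was not called in WT replicate 1 and stood at 5.01 in WT replicate 2, 31.7 in cKO replicate 1 and 47.3 in cKO replicate 2. Neither gained promoter had a peak in WT replicate 2, which was the longest list of the 4. Read depths are unknown, so a site just under its area limit cannot be told from a closed one.

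The second gained region, chr5:105293634-105294144, lay at the start of Gbp6, whose protein has been seen at Toxoplasma vacuoles. It too was absent from both WT lists, and its percentiles in cKO were 20.3 and 21.0. Both gained regions were in the lower part of the cKO lists. When each list was limited to its stronger peaks, those over its median area, 0 regions were gained at this cluster, beside 3.81% of all regions. The sequences of the gained promoters are alike: 389 of 437 aligned bases (89.0%) were identical. Of their 32-base words, 54.5% at the Gbp4 promoter and 23.1% at the Gbp6 promoter occur more than once in the genome. How reads that align to several places were treated is not given in the sources used here, and its part in these peaks was not tested.

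The strongest chromosome 5 region was the promoter of the short Gbp9 transcript, chr5:105109628-105111078. It had percentiles of 87.2, 89.1, 86.3 and 89.3. WT and cKO values overlapped, and the score difference was −0.01 ± 0.09 (limma adjusted p = 0.936).

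Beyond the 3′ end of Gbp8, the region chr5:105012585-105012850 stood at 13.9, 19.3, 36.8 and 38.6. Both cKO libraries lay above both WT libraries, but the score difference of 0.66 ± 0.36 did not pass (limma adjusted p = 0.191). Its neighbour 39234 bp downstream of the short Gbp8 transcript's start had 58.4, 64.5, 57.9 and 61.7. Within the long Gbp8 body, 3 further shared regions had overlapping groups, with 50.7, 60.4, 53.6 and 70.0 at 1213 bp, 23.5, 25.7, 14.5 and 24.9 at 5219 bp, and 12.6, 33.8, 3.501 and 32.3 at 11650 bp upstream of the short transcript's start.

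Near Gbp11 the 3 regions were called in every library. The intronic region had percentiles of 32.6, 54.9, 43.8 and 44.9, and the regions 7780 and 10126 bp upstream of the start had 12.2, 28.9, 10.3 and 19.3, and 53.8, 59.4, 56.0 and 66.4. A region 6328 bp upstream of Gbp4 had 11.99, 26.9, 18.8 and 32.5. In these 4 regions the groups overlapped. A peak of cKO replicate 2 alone made up 3 regions, at 3.33 in the Gbp8 body, 16.8 in an exon of Gbp9 and 12.3 in an exon of Gbp4. No peak of any library came within 10 kb of Gbp10.

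**Figure D1:**
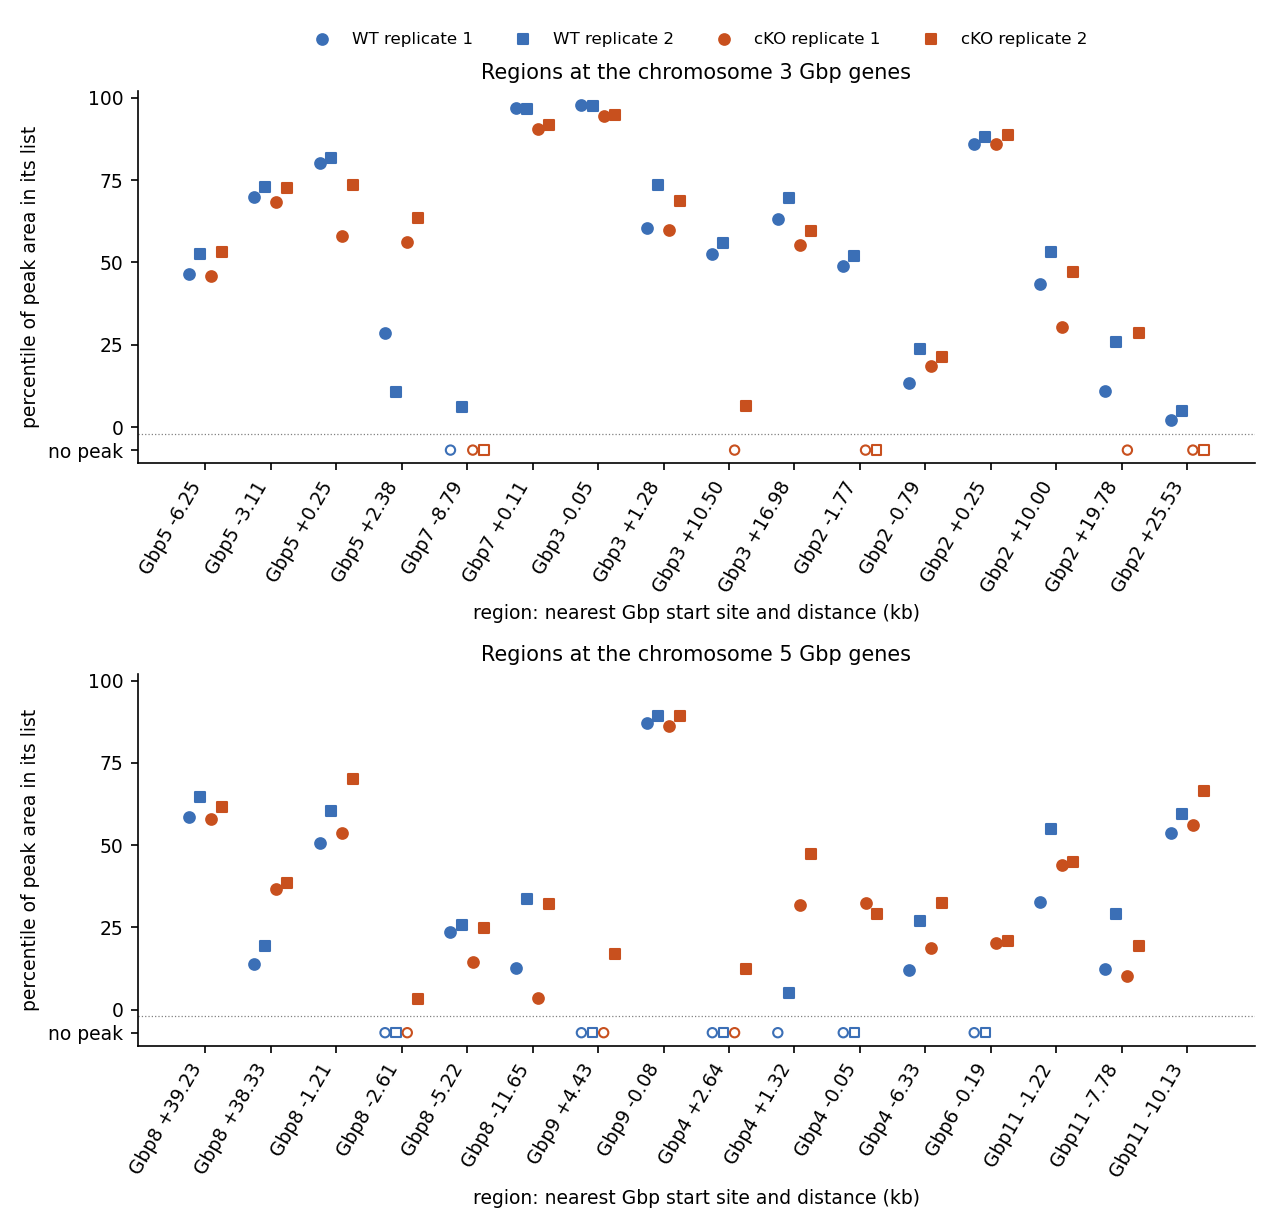
Percentile of the strongest peak (y axis, 0 to 100 within its list) in each of the 32 Gbp regions, ordered along each chromosome and named on the x axis by the nearest Gbp start and the distance to it in kb. Filled symbols are libraries with a peak, and open symbols in the bottom row are libraries without one. At chromosome 3 the WT symbols lie above the cKO symbols at the starts of Gbp5, Gbp7 and Gbp3, whereas at chromosome 5 the starts of Gbp4 and Gbp6 have cKO symbols alone.

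Among the 21 Gbp regions shared by all 4 libraries, 2 had both cKO percentiles above both WT percentiles and 4 had both below, while 15 overlapped. Over all shared regions, 22.2% were higher and 35.1% were lower without overlap. The 4 lower regions were all at chromosome 3, and the 2 higher regions were the Gbp5 intronic region and the region beyond Gbp8. The median percentile difference, cKO minus WT, was −2.60 over the 11 shared chromosome 3 regions (range −15.1 to 40.3) and 0.14 over the 10 shared chromosome 5 regions (range −5.75 to 21.1), beside −1.10 over all shared regions. Summit positions moved little between libraries: their spread in a shared Gbp region had a median of 23 bp, and 16 of 21 regions kept their summits within 50 bp.

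Peak area was also summed and given in ppm of the total area of its list (1 ppm is 1 unit of area in 1000000). Over a cluster it was 312, 295, 239 and 244 at chromosome 3 and 109, 117, 141 and 155 at chromosome 5. The sum was lower in both cKO libraries at chromosome 3 and higher at chromosome 5, at 0.797 and 1.31 times the WT mean. Each list was called separately, and much of the difference lay in peaks outside the regions shared by all 4 libraries: these gave 33.3, 34.5, 0 and 9.64 ppm at chromosome 3 and 0, 3.35, 22.1 and 32.6 ppm at chromosome 5. In shared regions alone the sums were 278, 260.0, 239 and 234 ppm at chromosome 3 and 109, 113, 119 and 123 ppm at chromosome 5, at 0.879 and 1.084 times the WT mean. The chromosome 5 to chromosome 3 ratio within a library was 0.351, 0.396, 0.589 and 0.636, a 1.64-fold difference between the genotype means. No library overlapped with those of the other genotype. Within replicate 1 the fold was 1.68 and within replicate 2 it was 1.60. In shared regions alone the ratio was 0.393, 0.436, 0.497 and 0.523. The number of peaks moved the same way, with 16, 17, 11 and 13 peaks at chromosome 3 and 10, 11, 13 and 16 at chromosome 5, as did the covered length, from 9744, 10943, 7995 and 9570 bp at chromosome 3 to 4266, 4574, 5241 and 6282 bp at chromosome 5. Area per covered bp was 1.75, 1.82, 1.51 and 1.62 at chromosome 3 and 1.40, 1.73, 1.36 and 1.57 at chromosome 5, where the genotypes overlapped. These values are a description of 2 libraries per genotype with no test.

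**Figure D2:**
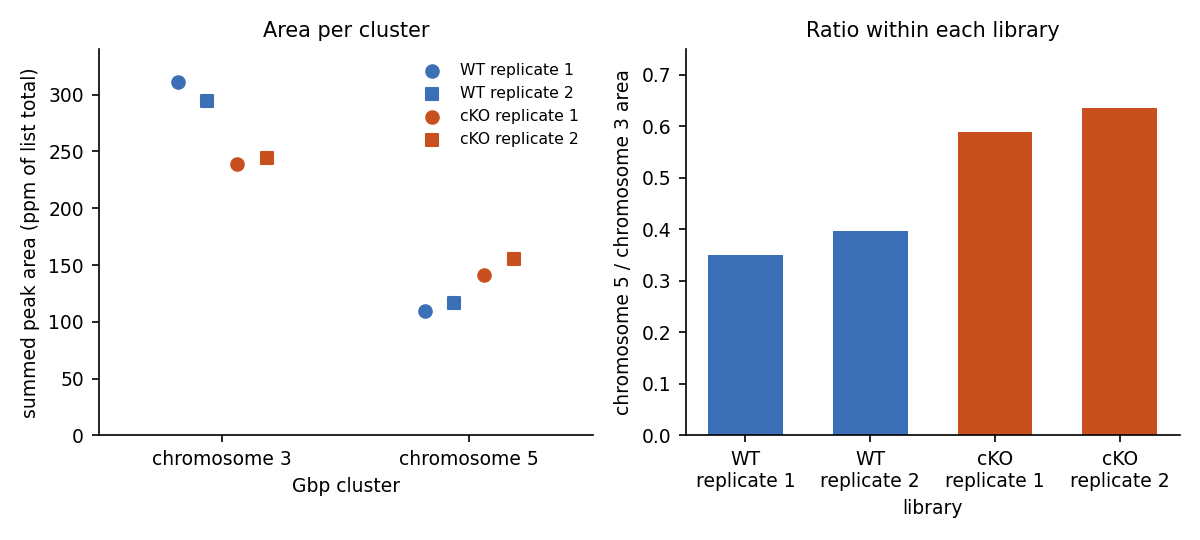
Summed peak area in ppm of the list total at the Gbp clusters (left, 1 symbol per library) and the ratio of chromosome 5 to chromosome 3 area in each library (right, 1 bar per library, axis from 0). The ratio is 0.351 and 0.396 in WT and 0.589 and 0.636 in H3.3cKO.

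Chromosome 3 held its 16 regions in 137 kb of windows, or 11.7 per 100 kb, and chromosome 5 held 16 in 276 kb, or 5.80 per 100 kb. Their placement was alike, with 2 promoter, 4 exonic, 5 intronic and 5 intergenic regions at chromosome 3 and 3, 2, 6 and 5 at chromosome 5. The median percentile of the peaks was 50.8, 53.1, 58.2 and 63.5 at chromosome 3 and 28.0, 33.8, 32.4 and 32.4 at chromosome 5, so chromosome 5 peaks ranked lower in each library.

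The clusters also differed in repeated sequence. The median share of 32-base words found more than once in the assembled chromosomes was 0.697% over the chromosome 3 regions and 40.4% over the chromosome 5 regions, and it was above 10% in 1 and 12 of the 16 regions. Over whole gene bodies it was highest for Gbp10 (69.4%) and Gbp6 (69.1%) and lowest for Gbp3 (2.83%) and Gbp2 (3.75%). Of these, Gbp10 had no peak and Gbp6 had its gained promoter peak. In the 1 kb around the 5′ end of the annotated body the share was 0 for Gbp2, Gbp3 and Gbp7, 5.79% for Gbp5, 42.1% for Gbp10 and 51.7% for Gbp4. For Gbp5 that end, chr3:142493978, lies upstream of the start used above, chr3:142496900. For Gbp8 and Gbp9 it lies next to the Gbp4 start, so these genes share nearly the same window. The promoter region of the short Gbp9 transcript, with a peak in every library, had 42.4%. The part of read placement in the difference between the clusters was not tested.

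**Figure D3:**
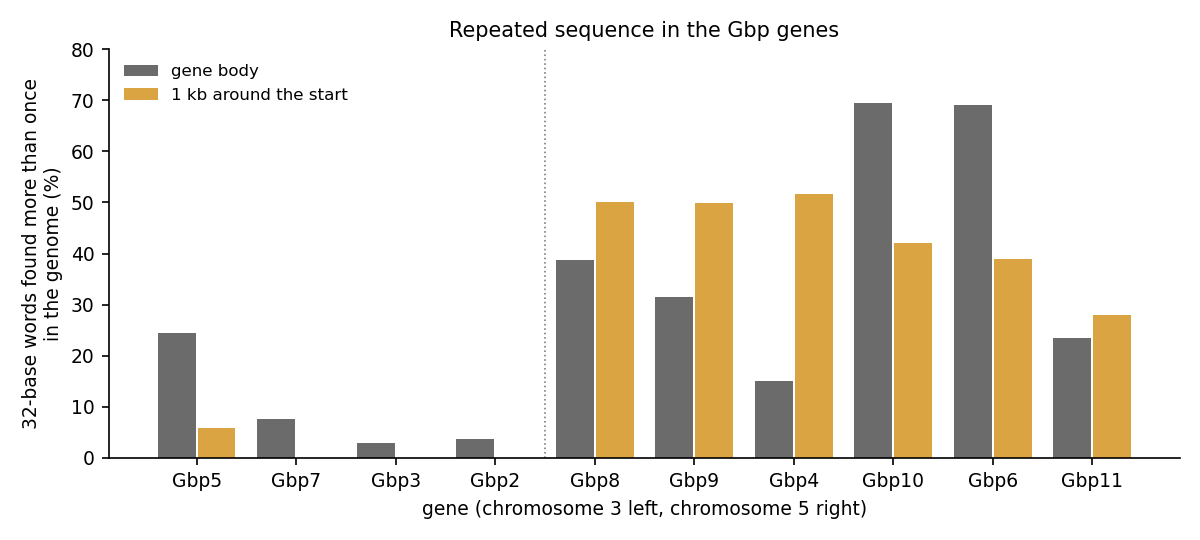
Share of 32-base words that occur more than once in the genome (y axis, percent) in the body of each Gbp gene and in the 1 kb around the 5′ end of that body, labelled start. The lowest value at that end of a chromosome 5 gene is 28.0% (Gbp11), whereas Gbp5 has 5.79% and the other chromosome 3 genes have 0. Gbp4, Gbp8 and Gbp9 share nearly the same window at that end.

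Within 100 bp of the summit of a region's strongest peak, the ISRE was found in 6 of the 16 chromosome 3 regions and 2 of the 16 chromosome 5 regions, against 3.90% of all 71243 regions. The 6 regions were those over the starts of Gbp2, Gbp3, Gbp5 and Gbp7, the Gbp5 intronic region and the weak region in a Gbp5 exon. At Gbp3 this summit, chr3:142560587, lay downstream of the printed promoter run, which ends at 142560043. The match near it is thus not one of the printed matches. Regions that were lower (the starts of Gbp3, Gbp5 and Gbp7) and the region that was higher in H3.3cKO thus held the same element. Neither gained promoter at chromosome 5 had a match. The GAS element was in 3 and 4 of the 16 regions of each cluster (6.10% of all regions), the AP-1 element in 4 and 2 (13.5%) and the PU.1 element in 1 and 4 (11.0%).

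When peak area was summed per gene, with a missing peak counted as 0, the calls at the clusters were in opposite directions. Of the 7 Gbp genes with peaks in both genotypes that were tested, 3 at chromosome 3 (Gbp2, Gbp3 and Gbp7) were lower and Gbp5 did not pass. The other 3, at chromosome 5 (Gbp4, Gbp8 and Gbp9), were higher. Windows of neighbouring genes shared peaks at both clusters. Of all 15997 protein-coding genes tested, 17% were lower and 16.6% were higher. Genes with a peak in at least 2 libraries were tested, so a gene such as Gbp6 could enter through the cKO libraries alone, and all 144 genes that did so were called. For that reason Gbp6 is given below without its p-value. Over all genes the median log2 difference was 0.02. Of the 15997 genes, 5919 had both cKO values above both WT values and 5468 had both below. Such separation of the genotypes at a Gbp gene was thus common among all genes. The test was limma on the log2 of the summed area in ppm plus a pseudocount of 3.43, adjusted over all those genes, and a fold on this scale understates the change of genes with little area.

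Gbp2 had summed areas of 76.2, 76.5, 49.3 and 55.4 ppm. Both cKO libraries were below both WT libraries, and the log2 difference was −0.52 ± 0.08 (limma adjusted p = 0.007). Its regions with fewer or no peaks in cKO, described above, are part of that sum.

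Gbp3 had 111, 105, 85.5 and 83.8 ppm and Gbp7 had 124, 112, 99.6 and 91.5. Each was lower in both cKO libraries, with log2 differences of −0.34 ± 0.06 for Gbp3 (limma adjusted p = 0.011) and −0.30 ± 0.08 for Gbp7 (limma adjusted p = 0.028). The region over the Gbp3 starts lay in the windows of both genes, so their calls are not independent. That over the Gbp7 start also lay in the Gbp5 window. Gbp5 had 125, 113, 104 and 105, a log2 difference of −0.18 ± 0.07 that did not pass (limma adjusted p = 0.079). The relative Gbp2b, which shares regions with the Gbp2 window, was lower by −0.46 ± 0.06 (limma adjusted p = 0.004).

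Gbp4 and Gbp9 took in the same peaks and so had the same values, 39.6, 41.8, 58.1 and 66.8 ppm. Both cKO libraries were above both WT libraries, and the log2 difference was 0.57 ± 0.09 (limma adjusted p = 0.007). Gbp8, whose annotated body spans both of those genes, had 83.2, 86.6, 105 and 121 and a log2 difference of 0.39 ± 0.08 (limma adjusted p = 0.015). These 3 calls are not independent. Of the 6 regions in the windows of Gbp4 and Gbp9, 2 were called in all 4 libraries, as were 7 of the 12 in the Gbp8 window. None of these shared regions passed the rank test. The gained promoter and other peaks missing from 1 or both WT lists, where they counted as 0, are part of each sum. With the shorter RefSeq gene bodies the windows of Gbp8 and Gbp9 no longer included the Gbp4 promoter, and their log2 differences were 0.17 ± 0.09 (limma adjusted p = 0.175) and 0.17 ± 0.09 (limma adjusted p = 0.198), so both calls were lost, while that of Gbp4 was kept.

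Gbp6 was listed at 0 in both WT libraries and had 6.15 and 5.04 ppm in cKO, all of it from the gained promoter peak. Gbp11 had 26.04, 30.1, 29.7 and 29.3 ppm, and in a fit over genes of all types (28499 genes) its log2 difference was 0.07 ± 0.10 (limma adjusted p = 0.627). Gbp10 was listed at 0 in every library and was not tested.

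Leaving out a library ended most of these calls. Without WT replicate 1, WT replicate 2 or cKO replicate 1, 0 Gbp genes passed in either direction, and in those fits 0% of all genes passed. Without cKO replicate 2, Gbp2 was lower by −0.60 ± 0.07. Gbp6 is not counted in that fit, as it entered the test through the cKO libraries alone.

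**Figure D4:**
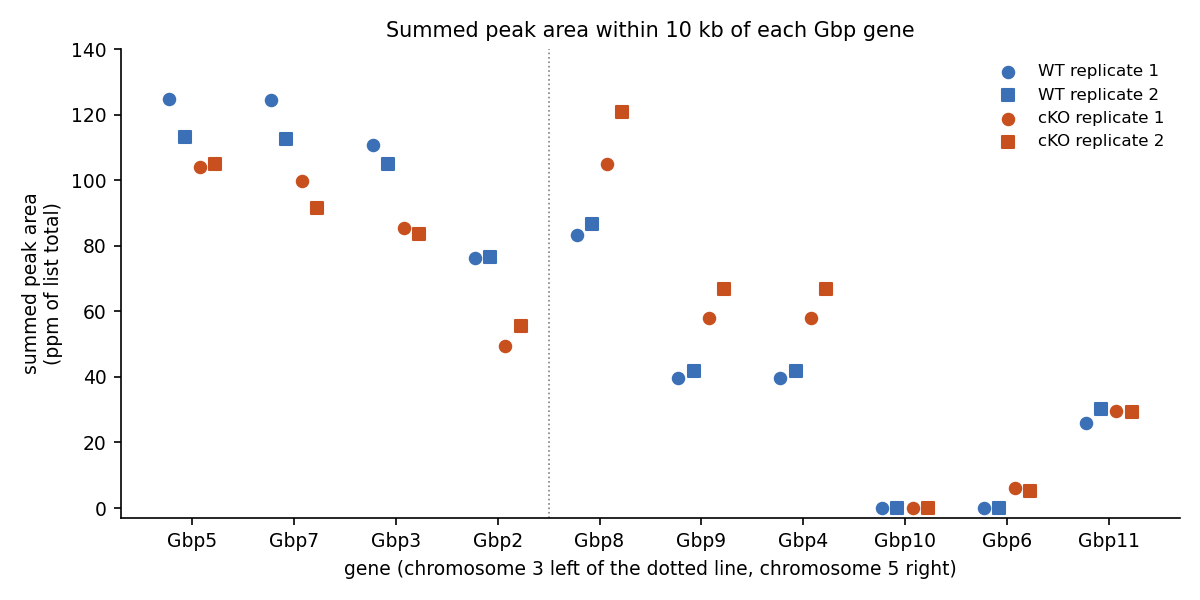
Summed peak area in ppm of the list total (y axis) within 10 kb of each Gbp gene in each library (1 symbol per library). WT symbols lie above cKO symbols at the chromosome 3 genes, cKO symbols lie above WT symbols at Gbp8, Gbp9, Gbp4 and Gbp6, and Gbp10 is at 0.

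The Gbp genes were set beside 30 other genes of the pathway, of which 28 had peaks in both genotypes. Among these 4 were higher in H3.3cKO, 8 were lower and 16 did not pass, while Tgtp1 had peaks in cKO alone and Tgtp2 had none. Over all genes tested 16.6% were higher and 17% were lower, and these shares also stand beside the counts per gene set below. The calls come from the same fit as those of the Gbp genes, in which most Gbp calls ended when a library was left out. The immunity-related GTPases (IRGs), which act with GBPs on parasite vacuoles, had 2 of 5 members with peaks in both genotypes higher and 0 lower. Irgm1, a regulator of the other IRGs, had 121, 115, 174 and 175 ppm and a log2 difference of 0.55 ± 0.05 (limma adjusted p = 0.002). Irgc1, a relative known from the testis, had a difference of 0.63 ± 0.13 (limma adjusted p = 0.017), and Tgtp1, which like Gbp6 entered the test through cKO alone, was listed at 0 in WT and had 7.18 and 4.12 ppm in cKO.

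Of 12 interferon signalling genes, 5 were lower, 0 were higher and 7 did not pass. Irf8, a transcription factor of the macrophage lineage, had 136, 131, 65.4 and 68.9 ppm and a log2 difference of −0.96 ± 0.06 (limma adjusted p = 0.00123). The 4 receptor chains were lower, with differences of −0.48 ± 0.08 for Ifnar1, −0.30 ± 0.05 for Ifnar2, −0.35 ± 0.09 for Ifngr1 and −0.30 ± 0.06 for Ifngr2 (limma adjusted p = 0.008, 0.007, 0.028 and 0.014).

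Of 6 inflammasome genes, 2 were higher, 1 was lower and 3 did not pass. Casp1, the inflammasome caspase, was higher by 0.26 ± 0.06 (limma adjusted p = 0.026), and Gsdmd, which encodes the pore-forming gasdermin D, was lower by −0.35 ± 0.06 (limma adjusted p = 0.012). Of 5 genes of the ATG conjugation machinery, which is needed to bring GBPs to vacuoles, 0 were higher and 2 were lower, Atg5 by −0.32 ± 0.07 (limma adjusted p = 0.020) and Atg7 by −0.30 ± 0.06 (limma adjusted p = 0.016). The median log2 difference was 0.15 over the IRG genes with peaks in both genotypes, −0.06 over interferon signalling, 0.16 over the inflammasome genes and −0.11 over the ATG genes, beside 0.02 over all genes.

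**Figure D5:**
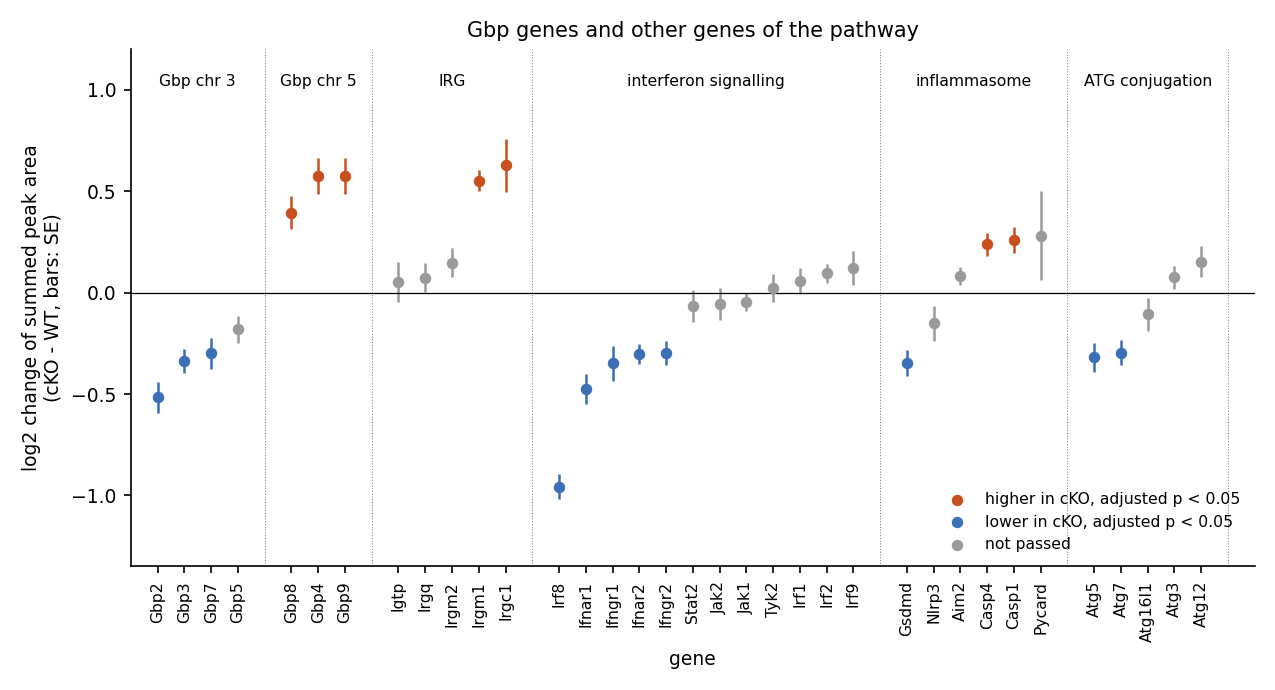
Log2 difference of summed peak area, cKO minus WT, with its SE (y axis) for the Gbp genes and the other genes of the pathway (x axis), coloured by the limma call. The chromosome 3 genes lie below 0, and the chromosome 5 genes Gbp8, Gbp4 and Gbp9 lie above it. Gbp6 and Tgtp1, which are listed at 0 in WT, are not drawn.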

How the data were processed

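ATAC-seq was measured in 2 WT and 2 H3.3cKO BMDM libraries, grouped by title. Paired reads were aligned by the authors to mm10 with Bowtie2 2.5.1, and peaks were called per library with Genrich at default settings. Read filters, duplicate removal, the shift of read ends and the placement of reads with several alignments are not given in the sources used here. The signal deposited by the authors is the area under each peak's significance curve, and it was used as a percentile or in ppm of the list total. The deposited −log10 p at the summit was not used for a result, and the deposited summit offset gave the summit. Depth and its error are unknown.

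Peaks overlapping by at least 1 bp were merged, and gene windows were the GENCODE vM21 body plus 10 kb. Tests used limma 3.58.1 (R 4.3.3, eBayes with trend), were checked on simulated data, and covered all shared regions or all protein-coding genes with a peak in at least 2 libraries. For shared regions limma's total degrees of freedom were 89640, so that all regions shared the fitted spread, and for genes they were 6.19. The pseudocount of 3.43 ppm is the share of 1 peak at the lowest area. A region was assigned to a promoter when its centre lay from 1000 bp upstream to 100 bp downstream of a start. Repeated 32-base words and motifs were counted in Python 3.11.15 (numpy 2.4.6, pandas 2.3.3) on GRCm38.p6, and the gained promoters were aligned with biopython 1.88.

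The Gbp genes, the pathway and marker lists and the tests were chosen with earlier results of these data known. The genes named are the 10 Gbp genes, Gbp2b, H3f3a, H3f3b and, from the pathway list, at most 12 that passed, by size of change. The result for 1 gene of that list is not reported here, and it was left out of the counts. Alternatives changed the peaks, overlap, window, scale, pseudocount, filter, replicate term and libraries. The RefSeq gene bodies and the fit over all gene types were added after seeing the data.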

Additional observations from a re-analysis of the deposited data

How the results depend on the processing

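With each list limited to peaks over its median area, 1 Gbp region was gained (1 at chromosome 3, 0 at chromosome 5) and 1 was lost (at chromosome 3). Over all regions 3.81% were gained and 7.06% were lost with that limit. With a cover of at least 50% of a region, 1 region was gained at chromosome 3, beside 4.10% of all regions. With windows of 2 kb, 1 was lost there, beside 7.25% of all regions. Leaving out a library gave 2 to 5 gained regions (2 to 5 at chromosome 5) and 2 to 4 lost regions (2 to 4 at chromosome 3). The 5 gained regions came without cKO replicate 1 and the 4 lost regions without cKO replicate 2, where 9.07% of all regions were gained and 12.7% were lost. The count of shared regions that were higher was 2 with quantile-normalized log2 area, beside 18.3% of all shared regions. With missing peaks at the lowest rank, 28 regions called in at least 2 libraries were fitted, and the 2 higher regions were the gained promoters, which entered through the cKO libraries alone. The start of Gbp2 reversed to −0.27 with summed area, where the cause was not tested beyond the merged peaks described. With the RefSeq gene bodies, chosen after seeing the data, Gbp4 was higher, and Gbp6 again entered through the cKO libraries alone. The fits of genes without a library are described above and held fewer samples.

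The replicate numbers of WT and cKO are not said to mark a shared batch, and with 2 pairs the libraries share only a number. Deviations of same-numbered libraries correlated at 0.219 over shared regions and 0.38 over genes. With the replicate block, 2 shared regions were higher (the Gbp5 intronic region and the region beyond Gbp8) and 4 were lower, the region beyond the 3′ end of Gbp3 included (adjusted p = 0.046), beside 12.004% and 22.0% of all shared regions. In the block fit of genes Gbp4, Gbp8 and Gbp9 were higher, beside Gbp6, which entered through the cKO libraries alone. Lower were 4 genes, Gbp5 included (limma adjusted p = 0.037). Over all genes 24.5% were higher and 22.4% were lower.

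Over all alternatives, 234 of the 272 values for single regions and genes kept their side of the threshold, 209 of them with the same sign and 25, none of which passed before or after, with the other sign. Of the rest, 32 lost the call, 5 gained one and 1 reversed. A site just under the area limit of a list cannot be told from a closed site. Read depths are unknown, so no single peak has an interval.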
